A study of Mus musculus with 4 samples.

Results

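The genes described here encode the Wnt ligands, their receptors, their secreted modulators and the core of the pathway inside the cell. They were found by gene symbol: any Wnt, Frizzled, Sfrp, Dkk, R-spondin or Dishevelled name, plus Frzb, Wif1, Lrp5, Lrp6, Axin1, Axin2, Apc, Gsk3b, Ctnnb1, Tcf7l1, Tcf7l2, Lef1, Ror1 and Ror2. This gave 58 genes of the 17097 on the array with a probe set annotated to exactly 1 symbol. Among the 58 is Fzd10os, an antisense transcript beside Fzd10 that matches by its letters and encodes no receptor. Sfrp4 and Tcf7 were not analysed here. RNA came from mouse brown adipocytes in which an shRNA targeted the long noncoding RNA Blnc1, on 2 arrays, or in which a scrambled shRNA was used, on 2 arrays. All cells were differentiated for 6 days. The arrays are labelled as biological replicates, with no account of the cell line, the mouse strain or how separate the cultures were. P-values therefore weigh the group difference against the spread between arrays of a group, shared in part over all probe sets. They speak for these samples only. The comparison asks which of these transcripts differ when Blnc1 is knocked down. Blnc1 itself is not named by the annotation, so the knockdown was not checked here.

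Wnt proteins are secreted lipid-modified signals that bind Frizzled receptors together with Lrp5 or Lrp6. In the canonical branch the signal, passed on through Dishevelled, stops a complex of Axin, Apc and Gsk3b from marking beta-catenin for destruction, and beta-catenin then acts with TCF/LEF factors on target genes. Other branches run through Ror receptors, cell polarity proteins and calcium. In mouse fat cell precursors, canonical Wnt signalling is known to hold back differentiation.

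Of the 58 genes, 13 were higher on the Blnc1 knockdown arrays and 0 were lower, at an adjusted p of 0.05 in limma (Benjamini-Hochberg over all 17097 genes). Over all genes, 11.4% were called higher and 7.18% lower. At an unadjusted p under 0.05, 16 members were higher and 4 lower, against 17.4% and 16.4% of all genes. Of the adjusted calls over all genes, 61.2% were higher. Median centring gave a share of 73.8%, and quantile normalization gave 49.2%. The secreted inhibitors Sfrp1 and Sfrp2, the pathway enhancers Rspo2 and Rspo3 and the receptor Ror1 were each about 3-fold higher, between 2.96-fold and 3.45-fold. Smaller rises were called for Dkk3, Fzd8, Fzd2, Fzd7, Apc, Ctnnb1, Tcf7l2 and Wnt5b. Axin2, a target gene that is widely read as a sign of beta-catenin activity, had a log2 fold change of -0.01. Its group means were 3.13 in knockdown and 3.14 in scramble, not far above the background value of 2.55 defined below.

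**Figure D1:**
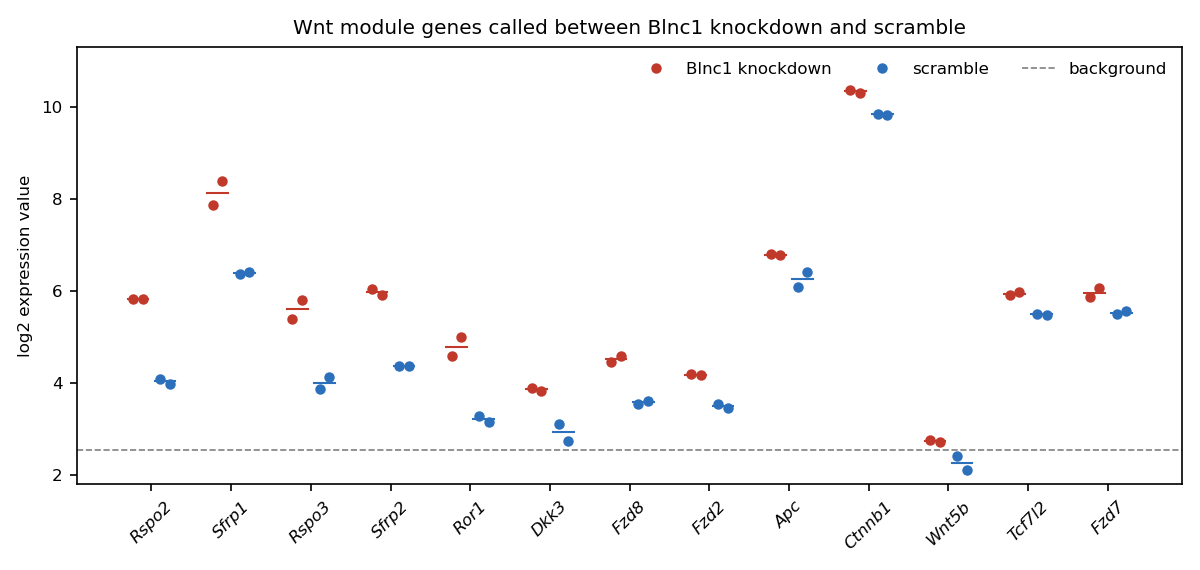
Log2 expression values of the 13 called genes, sorted by log2 fold change: red points are the 2 Blnc1 knockdown arrays, blue points the 2 scramble arrays, short bars the group means and the dashed line the background value of 2.55. In each of these genes both knockdown arrays lie above both scramble arrays, and the scramble values of Wnt5b lie under the dashed line.

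The median log2 fold change was 0.01 for the 58 genes and -0.04 for all genes. A rise of at least 1 log2 unit was called for 5 members, against 2.15% of all genes. No member had a value between those 5, the lowest of which was 1.57, and the next 2, both at 0.94. Both knockdown arrays were above both scramble arrays in 22 members, against 28.3% of all genes, and below them in 9, against 34.3%. In 16 members both groups were at background, meaning a group mean at or below 2.55, the highest log2 value that the array's antigenomic controls (3 to 24 G or C) reached on any array. The same held for 4210 of all 17097 genes. In 38 members both groups were above 2.55. Wnt5b was above it only in knockdown, and Wnt6, Wnt10b and Dvl2 only in scramble.

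**Figure D2:**
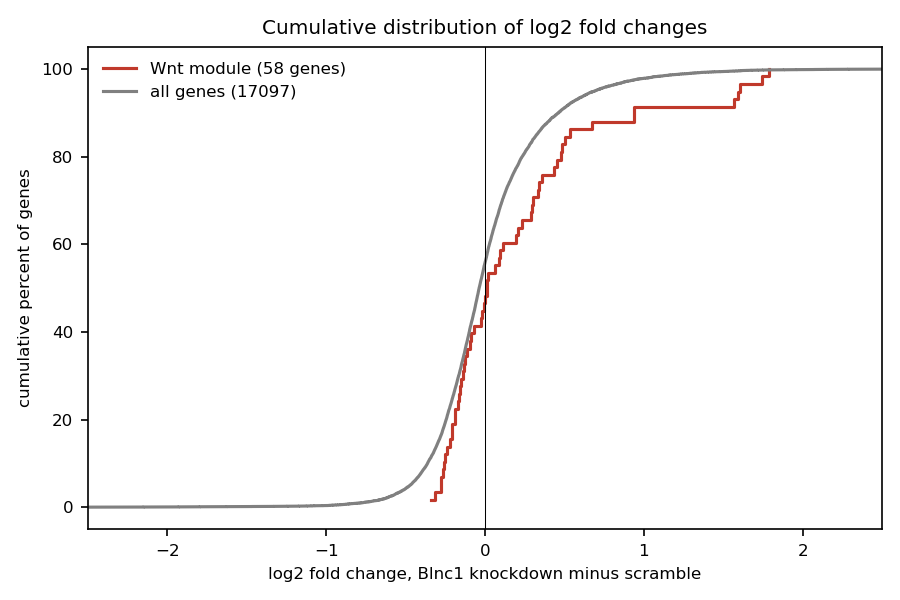
Cumulative percent of genes (vertical axis) with a log2 fold change, Blnc1 knockdown minus scramble, up to the value on the horizontal axis, for the 58 Wnt genes (red) and all 17097 genes (grey, cut at 2.5 in each direction). The red line starts at -0.34, and its last 5 steps lie at 1.57 and above.

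Several measures moved with the groups across the arrays. For Actb, the control probe set at the 3' end exceeded the one at the 5' end by log2 values of 1.77 and 1.88 in knockdown against 0.99 and 1.15 in scramble, while 18S ribosomal RNA read 6.64 and 7.01 in knockdown against 5.13 and 4.43 in scramble. Of 7 measured general fat cell markers, all above background in both groups, 0 were higher and 1 was lower in knockdown, the adipogenic factor gene Cebpa (1.38-fold, adjusted p = 0.0368). Adipoq, Fabp4, Lpl, Pparg, Lipe and Retn were not called, with Lipe at -0.33 (adjusted p = 0.0605). Of 9 brown fat markers, 6 were lower in knockdown and 1, Elovl3, was higher. The brown fat sums were 1300.2 and 1393 in knockdown against 2305 and 2436 in scramble on the linear scale. Of 9 measured preadipocyte and fibroblast markers, 6 were higher in knockdown and 0 lower: Col1a1, Cd34, Pdgfra, Pdgfrb, Dlk1 and Thy1. The summed linear level of all 9 was 2277 and 2510 in knockdown against 1717 and 1776 in scramble. Most of each sum is Vim, the brightest of the 9, which was not called (log2 fold change 0.38, limma adjusted p = 0.0534). Cd34 and Dpp4 were at background in scramble, and Pi16 in both groups. Of 9 hepatocyte markers, 8 were lower, with sums of 96.6 and 74.3 in knockdown against 302 and 288 in scramble. The endothelial markers Cdh5, Emcn, Tie1 and Vwf and the leukocyte markers Ptprc, Itgam, Lyz2 and Mrc1 were at background in both groups. Tek and Adgre1 were higher in knockdown. Kdr, Cldn5, Cd14, Cd68 and Csf1r were above background in both groups and not called. Their log2 fold changes lay between -0.33 (Kdr) and 0.09 (Csf1r). Pecam1, also not called, was at background in knockdown only. Sums over the endothelial list were 54.4 and 50.5 in knockdown against 51.8 and 50.2 in scramble, and over the leukocyte list 62.5 and 65.2 in knockdown against 58.4 and 58.7 in scramble. For the 5 smooth muscle markers the sums were 610 and 632 in knockdown against 440 and 459 in scramble. Most of each is Acta2, the only marker of that list called (1.44-fold higher, limma adjusted p = 0.0143). In these bulk samples more cells of a type and more RNA per cell cannot be told apart, and the part of these measures in the changes below was not tested.

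Of the 19 genes for Wnt ligands, which is the mouse family, 1 was called higher and 0 lower, against 11.4% and 7.18% of all genes. At background in both groups were 6 ligands: Wnt1, Wnt2, Wnt2b, Wnt3, Wnt8b and Wnt10a. The called one was Wnt5b, a ligand of the branches without beta-catenin, at 2.77 and 2.72 in knockdown against 2.42 and 2.11 in scramble. The knockdown arrays read just above the background value and the scramble arrays below it, so the rise was at least 1.15-fold (adjusted p = 0.0428). The probe set of Wnt5b is of a type that can detect other transcripts, and its second probe set, at background in both groups, had a log2 fold change of -0.34. Without knockdown replicate 1, knockdown replicate 2 or scramble replicate 2, the adjusted p of Wnt5b was 0.183, 0.156 and 0.107, and with the mean of both probe sets it was 0.726.

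Wnt5a, the closest relative of Wnt5b and a ligand of Ror receptors, read 3.94 and 4.22 in knockdown against 3.87 and 3.82 in scramble. Its knockdown values lay above the scramble values, but the difference of 0.23 had an adjusted p of 0.239 and a 95% interval of -0.06 to 0.52. Wnt10b, a ligand known to restrain adipogenesis in mouse cells, read 2.43 and 2.20 in knockdown against 2.73 and 2.43 in scramble, with the knockdown mean at background. Wnt6, another ligand with that activity, had a log2 fold change of -0.27 (adjusted p = 0.184), also with its knockdown mean at background. Wnt4 read 2.88 and 2.82 in knockdown against 3.09 and 3.13 in scramble, groups that did not overlap, with an adjusted p of 0.117. The other ligands above background, Wnt3a, Wnt7a, Wnt7b, Wnt8a, Wnt9a, Wnt9b, Wnt11 and Wnt16, had log2 fold changes between -0.22 (Wnt11) and 0.29 (Wnt16), none called. Wnt11 and, at background, Wnt8b were called lower without scramble replicate 2 (adjusted p = 0.0463 and 0.0372), the array on which both read lower than on scramble replicate 1.

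**Figure D3:**
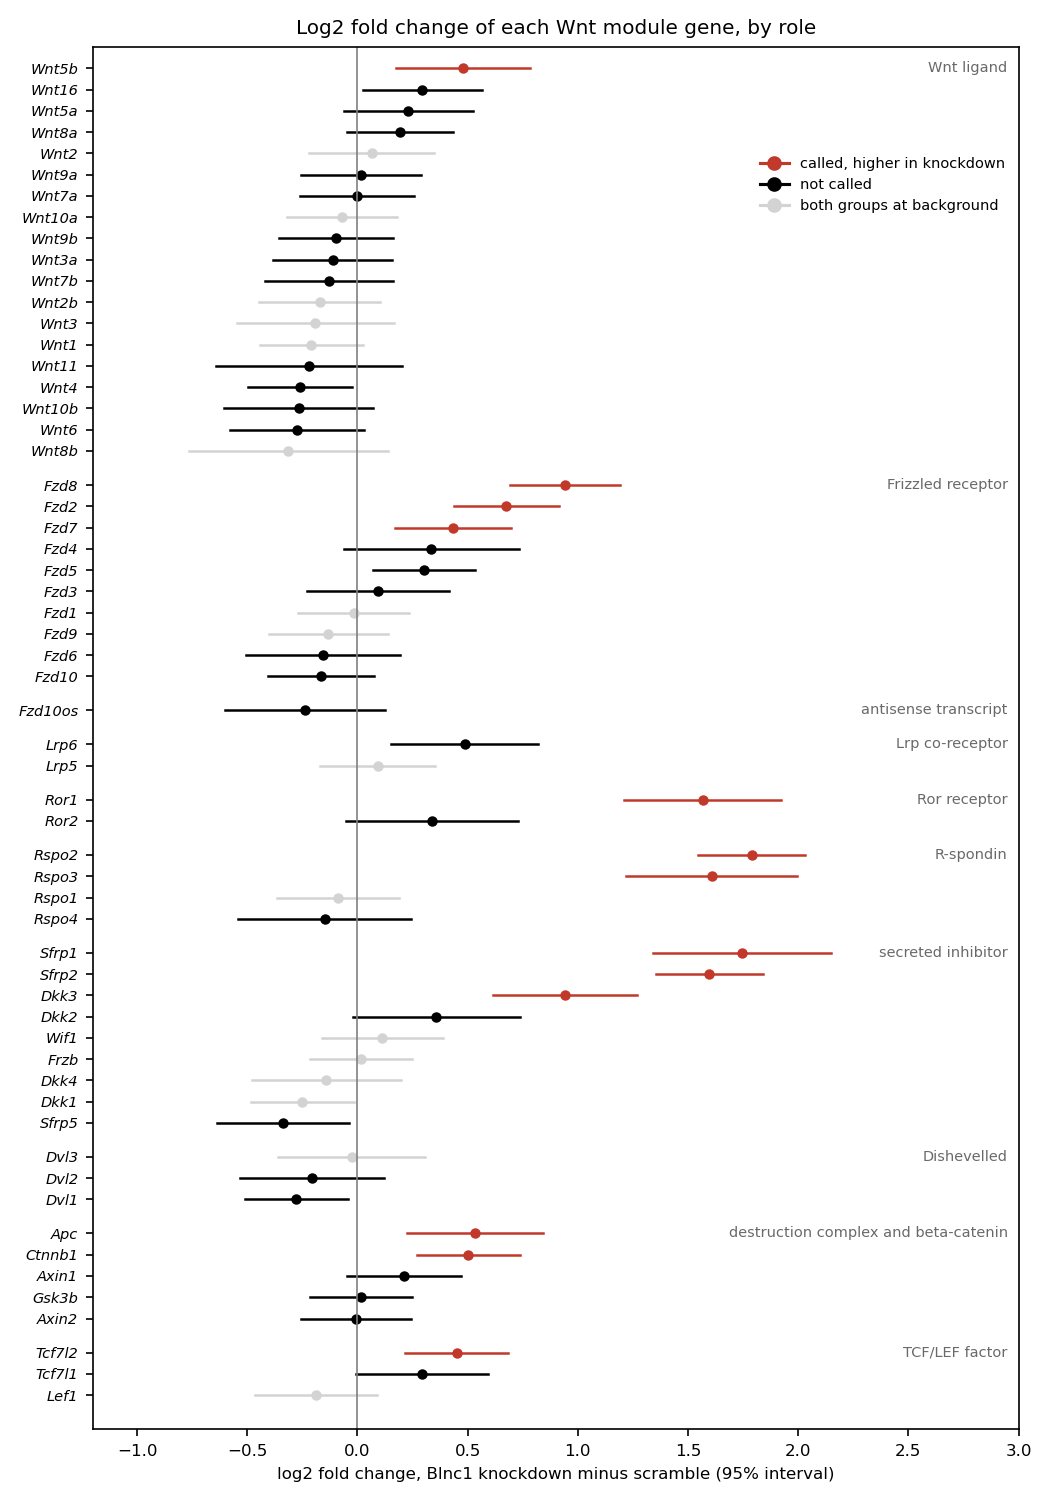
Log2 fold change, Blnc1 knockdown minus scramble, of each of the 58 genes (points) with its 95% interval (lines), grouped by role; red marks genes called higher, black genes not called and light grey genes with both groups at background. The largest values are those of Rspo2, Sfrp1, Rspo3, Sfrp2 and Ror1, and the called ligand, Wnt5b, sits at 0.48.

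Of the 10 Frizzled genes, which encode the receptors that bind Wnt proteins, 3 were higher in knockdown, 0 lower and 7 not called. The shares of all genes were 11.4% higher and 7.18% lower. Fzd8 read 4.45 and 4.59 in knockdown against 3.55 and 3.61 in scramble, a 1.92-fold rise (log2 0.94, SE 0.11, adjusted p = 0.00224). Fzd2 read 4.19 and 4.17 in knockdown against 3.55 and 3.45 in scramble, a 1.60-fold rise (log2 0.68, SE 0.10, adjusted p = 0.00594). The knockdown arrays were above the scramble arrays for both receptors. All 3 probe sets of Fzd2 were called, with log2 fold changes of 0.68, 0.87 and 0.89, and Fzd8 has 1. Fzd7, a receptor of immature cells in several tissues, read 5.87 and 6.06 in knockdown against 5.49 and 5.56 in scramble, a 1.35-fold rise (adjusted p = 0.038). That call rests on all 4 arrays: it was lost without any 1 of them, with adjusted p-values of 0.0857 and 0.24 without knockdown replicates 1 and 2, and 0.0913 and 0.057 without scramble replicates 1 and 2. A second probe set of Fzd7 was at background in both groups, and with the mean of both the adjusted p was 0.34. After quantile normalization it was 0.164.

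Fzd5 read 5.74 and 5.78 in knockdown against 5.45 and 5.46 in scramble. The groups did not overlap, but its difference of 0.30 (95% interval 0.07 to 0.54) had an adjusted p of 0.0759. After centring each array on its median it was 0.0427. Fzd4, which also binds the eye and vessel signal Norrin, had values that overlapped, 4.76 and 5.08 in knockdown against 4.78 and 4.38 in scramble, with an interval of -0.06 to 0.73. Fzd3 (0.09), Fzd6 (-0.16) and Fzd10 (-0.17) were above background and not called. The antisense transcript Fzd10os had a log2 fold change of -0.24 (adjusted p = 0.324). Fzd1 and Fzd9 were at background in both groups.

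The co-receptor Lrp6 read 4.62 and 4.38 in knockdown against 4.16 and 3.86 in scramble, and its partner Lrp5 was at background in both groups. For Lrp6 the groups did not overlap, and the log2 fold change of 0.49 (95% interval 0.15 to 0.82) had an adjusted p of 0.0552. It was called in 5 of 13 alternative settings, among them median centring (0.0361) and the replicate number as a block (0.0241), and its adjusted p was 0.267 without knockdown replicate 1. Ror1, a receptor of the kinase-like Ror pair that binds Wnt5a, read 4.58 and 4.99 in knockdown against 3.28 and 3.16 in scramble. This was a 2.96-fold rise (log2 1.57, SE 0.15, adjusted p = 0.0013), with both knockdown arrays more than 1 log2 unit above both scramble arrays. A second Ror1 probe set, at background in both groups, had a log2 fold change of 0.31, and the mean of both gave 0.94 (adjusted p = 0.00316). Ror2 read 2.84 and 3.09 in knockdown against 2.84 and 2.41 in scramble, with an interval of -0.05 to 0.73 (adjusted p = 0.197). Leaving out scramble replicate 1 gave 0.0451.

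R-spondins are secreted proteins that strengthen Wnt signals by binding Lgr receptors and clearing Znrf3 and Rnf43, the ligases that remove Frizzleds from the cell surface. Of the 4 genes, Rspo2 and Rspo3 were called higher. Rspo2 (Entrez Gene 239405) read 5.83 and 5.82 in knockdown against 4.09 and 3.97 in scramble, a mean of 5.82 ± 0.01 in knockdown against 4.03 ± 0.08 in scramble (SD, n = 2 each). Its rise was 3.45-fold (log2 1.79, SE 0.10, limma adjusted p = 0.000331), the largest among the 58 genes. Rspo3 (Entrez Gene 72780) read 5.39 and 5.81 in knockdown against 3.87 and 4.12 in scramble, with more spread in both groups. Its rise was 3.05-fold (log2 1.61, SE 0.16, adjusted p = 0.00159). A second Rspo3 probe set, at background in both groups, had a log2 fold change of -0.26, and the mean of both gave 0.68 (adjusted p = 0.0222). Rspo4 overlapped between groups, at 3.27 and 3.10 in knockdown against 3.57 and 3.10 in scramble, and Rspo1 was at background.

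Among the R-spondin partners outside the 58 genes, the receptor gene Lgr4 was 1.48-fold higher, at 7.57 and 7.31 in knockdown against 6.89 and 6.87 in scramble (adjusted p = 0.0213). That call was lost without knockdown replicate 1 (0.135) and with the mean of its probe sets (0.108). Znrf3 was 1.35-fold lower, at 4.83 and 4.80 in knockdown against 5.36 and 5.12 in scramble (adjusted p = 0.0471). Its call was lost without knockdown replicate 1 (0.168), knockdown replicate 2 (0.208) or scramble replicate 1 (0.129), after median centring (0.075), with the mean of its probe sets (0.0715) and over all probe sets (0.0507). Rnf43 was at background in both groups.

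Of 9 secreted inhibitor genes, 3 were higher in knockdown and 0 lower, against 11.4% and 7.18% of all genes. Another 4 were at background in both groups (Dkk1, Dkk4, Frzb and Wif1). The Sfrp proteins carry a Frizzled-like domain that binds Wnt proteins outside the cell. Sfrp1 (Entrez Gene 20377) read 7.87 and 8.39 in knockdown against 6.36 and 6.40 in scramble, a 3.35-fold rise (log2 1.75, SE 0.17, adjusted p = 0.00136). Sfrp2 (Entrez Gene 20319) read 6.03 and 5.91 in knockdown against 4.37 and 4.38 in scramble, a 3.02-fold rise (log2 1.60, SE 0.10, adjusted p = 0.000389). Knockdown arrays were above scramble arrays for both, and each gene has 1 probe set here. Sfrp5, an inhibitor that mouse white fat secretes, was not called, with values of 2.58 and 2.63 in knockdown against 3.09 and 2.80 in scramble, close to background. Its difference of -0.34 (95% interval -0.64 to -0.04) had an adjusted p of 0.11. Without scramble replicate 2 it was called lower (0.0376).

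Dkk1, Dkk2 and Dkk4 bind Lrp5 and Lrp6, while Dkk3 is a distant member of the family whose part in Wnt signalling is less settled. Dkk3 read 3.90 and 3.83 in knockdown against 3.11 and 2.74 in scramble, a 1.92-fold rise (log2 0.94, SE 0.14, adjusted p = 0.00572). Its second probe set moved the same way, at 3.28 and 3.65 in knockdown against 2.17 and 2.41 in scramble, where the scramble mean was at background (adjusted p = 0.00402 over all probe sets). Dkk2 read 3.20 and 3.56 in knockdown against 3.18 and 2.87 in scramble, groups that barely separated, with an interval of -0.02 to 0.74 (adjusted p = 0.166).

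The 250 bases before the RefSeq start (GRCm38.p6) are shown for Sfrp2 and Ror1, the pair with a window in the table among the 5 largest rises, and for Dkk1, a textbook beta-catenin target that stayed at background. Capitals mark the TCF core CTTTGA or its reverse complement TCAAAG.
Ror1, chr4:100095541-100095790, plus strand: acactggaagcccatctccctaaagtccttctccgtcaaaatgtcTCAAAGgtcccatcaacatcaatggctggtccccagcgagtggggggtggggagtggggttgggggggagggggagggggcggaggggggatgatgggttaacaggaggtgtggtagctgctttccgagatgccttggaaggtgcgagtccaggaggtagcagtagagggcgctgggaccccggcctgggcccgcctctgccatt
Sfrp2, chr3:83766071-83766320, plus strand: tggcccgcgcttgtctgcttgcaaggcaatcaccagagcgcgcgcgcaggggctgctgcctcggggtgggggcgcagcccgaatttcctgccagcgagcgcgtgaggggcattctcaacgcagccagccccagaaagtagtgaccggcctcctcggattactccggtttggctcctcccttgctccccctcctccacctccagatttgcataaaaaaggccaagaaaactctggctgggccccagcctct
Dkk1, chr19:30549497-30549746, minus strand: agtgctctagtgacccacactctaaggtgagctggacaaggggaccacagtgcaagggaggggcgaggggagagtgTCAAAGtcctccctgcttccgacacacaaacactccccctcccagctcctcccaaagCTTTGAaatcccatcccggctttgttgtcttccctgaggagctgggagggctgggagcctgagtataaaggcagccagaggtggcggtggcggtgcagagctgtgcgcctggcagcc

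Ror1 has 1 match and Dkk1 has 2, while these letters are not in the Sfrp2 window. Of the 58 genes, 40 have at least 1 window in the table and 8 of those hold the core in 1 of theirs. The core is in 13.8% of all 32851 windows of this length. That is a share of windows and not of genes, and some genes have several windows. Of the 6 called genes with a window, it was found in those of Ror1 and Wnt5b and not in those of Ctnnb1, Fzd7, Sfrp2 and Tcf7l2. A match is a description of the letters.

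The Dishevelled genes, whose products relay the signal from Frizzled, were not called. Dvl1 read 5.62 and 5.67 in knockdown against 5.94 and 5.91 in scramble, groups that did not overlap, with a difference of -0.28 (95% interval -0.51 to -0.04, adjusted p = 0.098). After quantile normalization it was called lower, with a log2 fold change of -0.45 (adjusted p = 0.024). Dvl2 had its knockdown mean at background, and Dvl3 was at background in both groups.

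Of the 5 genes for the destruction complex and its target beta-catenin, 2 were called higher, Ctnnb1 and Apc. Over all genes, 11.4% were called higher. Ctnnb1, which encodes beta-catenin, read 10.37 and 10.31 in knockdown against 9.85 and 9.82 in scramble, a 1.42-fold rise (log2 0.50, SE 0.10, adjusted p = 0.0161). Its other probe sets were also called: one read 7.22 and 7.16 in knockdown against 5.86 and 6.03 in scramble (2.37-fold) and the other 4.72 and 4.52 in knockdown against 3.87 and 3.74 in scramble (1.76-fold), with adjusted p-values of 0.00105 and 0.00566 over all probe sets. The brightest probe set alone missed the threshold without knockdown replicate 1 (adjusted p = 0.11) or replicate 2 (0.0885), and the mean of all 3 had a log2 fold change of 0.85 (0.00231). Apc, the scaffold that holds beta-catenin for phosphorylation, read 6.79 and 6.78 in knockdown against 6.09 and 6.41 in scramble, a 1.45-fold rise (adjusted p = 0.0322). Its 3 dimmer probe sets had log2 fold changes of 0.07, 0.28 and 0.18 and were not called. The Apc call was lost without knockdown replicate 1 (0.139), knockdown replicate 2 (0.138) or scramble replicate 1 (0.0785), and likewise after quantile normalization (0.086) and with the mean of its probe sets (0.108).

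Gsk3b, the kinase of the complex, gave different answers by probe set. The brightest read 6.90 and 6.88 in knockdown against 6.89 and 6.87 in scramble, a difference of 0.01 with a 95% interval of -0.22 to 0.25. The next read 6.87 and 7.03 in knockdown against 5.04 and 4.59 in scramble, a 4.39-fold rise (log2 2.13, 95% interval 1.75 to 2.52, adjusted p = 0.000688 over all probe sets). Another rose 1.77-fold, at 5.07 and 5.45 in knockdown against 4.60 and 4.27 in scramble (adjusted p = 0.0187), and the dimmest had a log2 fold change of -0.11. Within an array, the second probe set minus the brightest was -0.03 and 0.15 in knockdown against -1.84 and -2.28 in scramble, so these probe sets changed unequally. With the mean of all 4, Gsk3b was called higher with a log2 fold change of 0.72 (adjusted p = 0.0137). Where each probe set lies on the transcript was not analysed here, and the part of the 3' and 5' control values that differ between the groups was not tested.

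**Figure D4:**
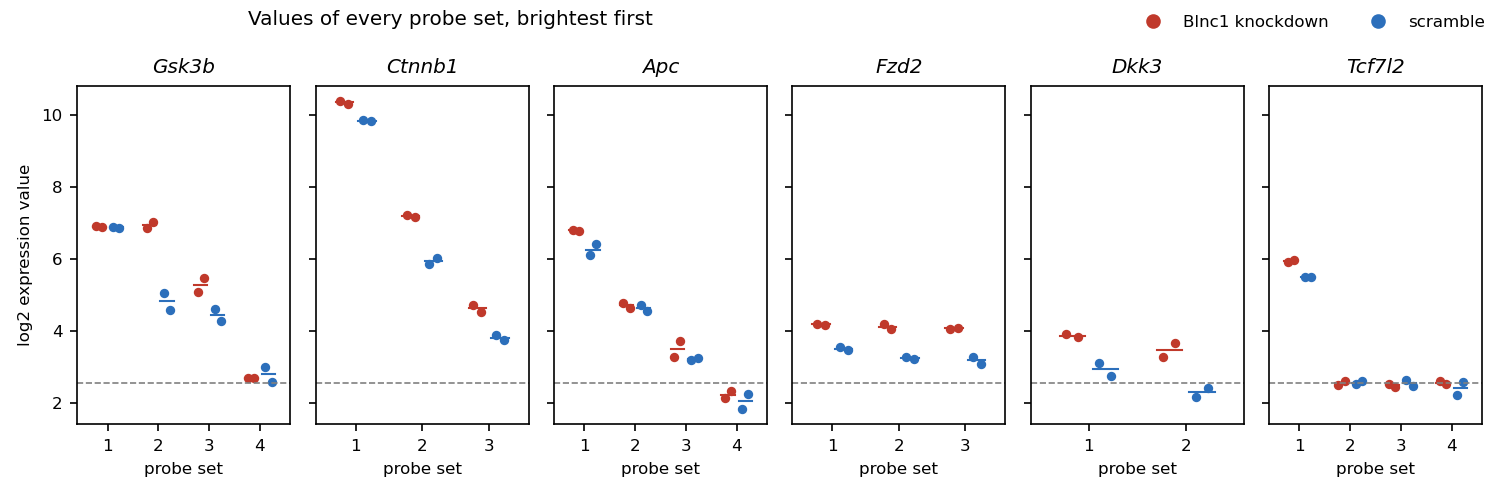
Log2 expression values of every probe set of 6 genes, numbered from the brightest: red points are the 2 Blnc1 knockdown arrays, blue points the 2 scramble arrays, short bars the group means and the dashed line the background value of 2.55. All probe sets of Ctnnb1, Fzd2 and Dkk3 are higher in knockdown, while those of Gsk3b differ, with no gap at the first and 2.13 log2 units at the second.

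Over all 100 probe sets of the 58 genes, 20 were called higher and 0 lower, against 10.6% and 6.02% of all 28898 probe sets with 1 symbol. These 20 belong to 14 genes, the 13 above and Gsk3b. Of the remaining complex genes, Axin1, the limiting scaffold, read 5.32 and 5.47 in knockdown against 5.23 and 5.13 in scramble, and was not called (interval -0.05 to 0.47). Axin2 read 3.21 and 3.06 in knockdown against 3.15 and 3.12 in scramble, overlapping values with a 95% interval of -0.26 to 0.24. A second Axin2 probe set, at background in both groups, had a log2 fold change of -0.03.

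Of the 3 TCF/LEF genes, whose products bind DNA with beta-catenin, Tcf7l2 was called higher. It read 5.92 and 5.97 in knockdown against 5.50 and 5.48 in scramble, a 1.37-fold rise (log2 0.45, SE 0.10, adjusted p = 0.0226). Its 3 dimmer probe sets read between 2.22 and 2.63, around background, and were not called. The call was lost without knockdown replicate 1 (0.108) or replicate 2 (0.147), and likewise after quantile normalization (0.097) and with the mean of its probe sets (0.288). Tcf7l1, mostly a repressor, read 6.98 and 7.10 in knockdown against 6.89 and 6.61 in scramble, with an adjusted p of 0.156, and the other Tcf7l1 probe set had -0.10 as its log2 fold change. Lef1 was at background in both groups.

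Beyond the 58, 126 further genes of the pathway were measured. Some stand in more than 1 of the 5 lists below. Of the 126, 29 were higher, 6 lower and 91 not called, and their log2 fold changes had a median of 0.06. Those shares are 23.0% higher and 4.76% lower, against 11.4% and 7.18% of all genes. By list, 33.3% (secretion and modulators), 30% (targets) and 27.6% (polarity and calcium) were higher. For nuclear partners it was 9.09% and for cytoplasmic genes 4.17%, both under the share of all genes. Among 27 genes for Wnt secretion, co-receptors and extracellular modulators, 9 were higher and 2 lower. Reck, a membrane protein that works with Adgra2 as a Wnt7 co-receptor, was 2.57-fold higher (adjusted p = 0.00116), and Wls, which carries Wnt proteins to the cell surface, was 2.01-fold higher at 7.50 and 7.57 in knockdown against 6.52 and 6.54 in scramble (adjusted p = 0.0014). The glypican gene Gpc4 was 2.05-fold higher (adjusted p = 0.00198). Cthrc1, a secreted matrix protein, was at background in scramble and at least 1.73-fold higher (adjusted p = 0.00156). Of 24 cytoplasmic pathway genes, 1 was higher, the cytoskeleton linker Macf1 (1.54-fold, adjusted p = 0.00883), whose call was lost without either knockdown array (0.052 and 0.0708).

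Of 22 nuclear partners, the coactivator Crebbp and the beta-catenin partner Bcl9l were higher (2.44-fold and 1.82-fold, adjusted p = 0.0109 and 0.0266), and the Groucho relative Tle5 was 1.68-fold lower (adjusted p = 0.00832). Each of those calls was lost without knockdown replicate 1 (Crebbp, 0.0549), replicate 2 (Tle5, 0.0616) or either (Bcl9l, 0.0792 and 0.129). Of 29 genes of the polarity and calcium branches, 8 were higher and 0 lower. They include the polarity gene Prickle1 (1.73-fold, adjusted p = 0.00371), the protein kinase C gene Prkca (1.64-fold, 0.0133) and the phospholipase C genes Plcb4 and Plcb1 (1.58-fold and 1.54-fold). Plcb1 was not called without knockdown replicate 1 or 2 (0.0516 and 0.0591), and Prkca and Plcb4 not without replicate 2 (0.0922 and 0.0742). Averaging each gene's probe sets gave adjusted p-values of 0.279 for Bcl9l, 0.127 for Plcb1 and 0.187 for Prkca.

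Genes known as beta-catenin and TCF targets went both ways, with 9 of 30 higher and 4 lower. The matricellular genes Ccn2, Ccn1 and Ccn4 and the hyaluronan receptor gene Cd44 were 2.94-fold, 2.42-fold, 2.22-fold and 2.57-fold higher (adjusted p between 0.00097 for Ccn4 and 0.00252 for Cd44). With the mean of a gene's probe sets the log2 fold change was 0.53 for Cd44 (adjusted p = 0.0304), in place of 1.36, and 0.76 for Ccn4 (adjusted p = 0.00405), in place of 1.15. The cell cycle gene Ccnd1 was 1.68-fold higher (adjusted p = 0.0186), and Myc was 1.48-fold lower, at 5.90 and 6.14 in knockdown against 6.54 and 6.63 in scramble (adjusted p = 0.0194). Ccnd1 was not called without knockdown replicate 2 (0.109) or scramble replicate 1 (0.0509), and Myc not without knockdown replicate 1 (0.127). Among the negative-feedback targets, Znrf3 was lower, as given above, while Notum and Nkd1 were not called (log2 fold changes -0.03 and 0.16). Of other targets, the stem cell receptor gene Lgr5 was not called (log2 fold change 0.03), and Sp5 was at background. Several of these genes answer to other pathways too, and the list's Tcf4, 1.41-fold higher, is the E-protein gene and not Tcf7l2. Its call was lost without knockdown replicate 1 (0.194), knockdown replicate 2 (0.111) or scramble replicate 1 (0.104) and after quantile normalization (0.112). Tnfrsf19, counted among the 4 lower genes, was at background in both groups, and its call was lost without knockdown replicate 1 (0.0713), knockdown replicate 2 (0.225) or scramble replicate 1 (0.114), after quantile normalization (0.0651), after median centring (0.0582) and with the mean of its probe sets (log2 fold change -0.15, 0.349).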

How the data were processed

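The values are log2 expression values deposited by the authors, 1 per probe set and array, from Affymetrix mouse PM strip arrays. Per the labels' protocols, biotin-labelled RNA was made from 250 ng of total RNA with a 3' in vitro transcription kit. Per the submitters' processing notes the tools were affy, RMA and limma, with no versions. The log2 scale was read from the values; how they were normalized is not stated further in the sources at hand. The table holds 45141 probe sets, 104 of them controls. A gene is its brightest probe set by mean among the 28898 with exactly 1 symbol in the platform annotation; 4 probe sets that pair Sfrp1 or Dvl3 with another gene were left out. Array number, 2 per group, limits the precision.

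Tests were run in limma 3.58.1 under R 4.3.3 (lmFit, then eBayes, over 45037 probe sets, with no term but the group, two-sided p-values, 2 residual and 4.93 prior degrees of freedom), with Benjamini-Hochberg adjustment over all genes, or over all single-symbol probe sets where stated. The code was tested on simulated data. Members and lists were chosen with earlier results of these data known. By the rule for named genes every member is accounted for, called ones in full, and up to 4 called genes with the largest change are named per further list; Lgr4, Znrf3, Rnf43, Ccnd1, Myc, Notum, Nkd1, Lgr5, Sp5, Tcf4 and Tnfrsf19 were named after their values were seen. Alternatives were quantile normalization, median centring, a filter on the dimmest 40 percent of genes, a trended and a robust eBayes, averaging a gene's probe sets, every probe set on its own, a replicate block, each array left out, and treat against 0.5. Marker lists were fat cell, brown fat, preadipocyte, endothelial, leukocyte, smooth muscle, skeletal muscle and hepatocyte genes; of the muscle lists, 1 of 5 smooth muscle markers was higher and 0 lower, and of 7 skeletal muscle markers 1 was higher and 2 lower. Promoter windows are RefSeq's, GRCm38.p6. Plots used matplotlib 3.10.9.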

Additional observations from a re-analysis of the deposited data

How the results depend on the processing

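Rspo2, Rspo3, Ror1, Sfrp1 and Sfrp2 were called higher under all 13 alternatives, and no called member changed direction under any of them. Fzd8, Dkk3 and Fzd2 were called in all but treat against 0.5. Higher members numbered between 8 and 13 with 1 array left out, and 5 with treat against 0.5, in place of 13. These were not always the same genes, and at most 11 of the original 13 were kept with 1 array left out. Without scramble replicate 1, Apc and Fzd7 were lost while Lrp6 and Ror2 were newly called higher. When every probe set was counted on its own, 20 probe sets of 14 genes were higher. Lower members, 0 otherwise, numbered 1 after quantile normalization (Dvl1) and between 0 and 3 with 1 array left out, the 3 being Sfrp5, Wnt8b and Wnt11 without scramble replicate 2. Among the other Wnt pathway genes, higher ones numbered between 14 and 27 with 1 array left out, 44 by probe set and 7 with treat, and lower ones between 1 and 7 with 1 array left out, 3 after median centring and 0 with treat.

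The number of all genes called lay between 1050 and 2841 with 1 array left out, and was 4788 by probe set and 337 with treat, in place of 3169. Higher genes numbered between 795 and 1681, 3049 and 290, in place of 1941, and lower ones between 255 and 1168 with 1 array left out and 47 with treat, in place of 1228. Of the calls, 61.2% were higher; median centring gave 73.8%, and quantile normalization gave 49.2%. The fits with 1 array in a group take its spread from the pair in the other. With the replicate number as a block, 14 members were higher, Lrp6 being added, and 0 lower. Across probe sets, same-numbered arrays deviated together at r = 0.04. With 2 arrays per group, that value cannot show whether same-numbered arrays were paired, and the labels do not say. Treat's stricter null lowers the counts by construction. With 1 array left out, counts moved in both directions. The cause of those shifts and of the others was not tested. For the 16 members at background, low signal limits what the arrays can show.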
